A study of Mus musculus with 6 samples.

Results

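The retinoblastoma (Rb) family of pocket proteins and the DREAM complex that 2 of them form are described here through 9 genes: Rb1, Rbl1 and Rbl2, the MuvB genes Lin9, Lin37, Lin52, Lin54 and Rbbp4, and Mybl2. The genes were chosen by name, and each matched 1 of the 56196 genes in the count table. All 9 passed the filter on low counts, which left 15361 genes. RNA was sequenced from 6 mouse osteosarcomas in which Osx1-Cre, a recombinase driven in osteoblast precursors, cut loxP-flanked (floxed) Rb1 and p53 genes. The 3 double knockout tumours (DKO; Osx1-Cre;Rb1lox/lox;p53lox/lox) had intact Skp2. The 3 triple knockout tumours (TKO; Osx1-Cre;Rb1lox/lox;p53lox/lox;SKP2-/-) lacked it. Both groups therefore carry the Rb1 and p53 deletions in their bone lineage cells, and other cells of a tumour keep both genes. In each group replicate 1 was male and replicates 2 and 3 were female. The labels give no ages. As the sexes differ, replicate 1 came from another mouse than replicates 2 and 3 of its group. The sample titles of replicates 2 and 3 carry different codes in each group. What the codes stand for is not explained, and whether these replicates grew in separate mice is left unsaid. The p-values cover the spread of these samples alone, which may be partly technical. Where 3 values of a group are listed, they are replicates 1, 2 and 3 in that order, and TKO1 stands for replicate 1 of TKO, and so on.

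Pocket proteins hold cells out of division by binding E2F transcription factors and silencing the genes needed for DNA replication. pRB, encoded by Rb1, mainly binds activating E2Fs. p107 (Rbl1) and p130 (Rbl2) join E2F4 or E2F5, a DP partner and the MuvB core to form DREAM, which represses cell cycle genes in resting cells. When cells enter the cycle, cyclin-dependent kinases phosphorylate the pocket proteins, DREAM comes apart, and MuvB pairs with B-MYB (Mybl2) to switch on genes of mitosis. SKP2 selects the proteins that an SCF ubiquitin ligase marks for destruction, among them the cycle inhibitors p27 and p130. RNA counts do not measure these protein-level steps.

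RefSeq promoters, taken as the 250 bases before each RefSeq transcript start in GRCm38.p6, were matched for 7 of the 9 genes, with Lin54 having 2. Rb1 and Lin9 had no entry. For Lin37, Lin52 and the second Lin54 promoter the RefSeq start lies 192, 86 and 2066 bases inside the GENCODE gene whose coordinates are given with each member, and for Mybl2 it lies 52 bases before that gene. For the other 4 promoters both starts are the same base. Sequences are shown for 1 pocket protein (Rbl1), for Rbbp4 and for Mybl2. Among the genes with an entry, the CPM values of Rbbp4 (barely) and of Lin37, which is not printed, separated the groups. Capitals mark matches, on either strand, to an E2F site (TTTCCCGC, TTTCGCGC, TTTGCCGC or TTTGGCGC), to the shorter E2F core GGCGGGA or to the cell cycle homology region (CHR; TTTGAA, or its variant TTCGAA), the element that LIN54 reads. A site that runs TTTCCCGCC also holds the core on its other strand.
Rbl1 (chr2:157204535-157204784, minus strand): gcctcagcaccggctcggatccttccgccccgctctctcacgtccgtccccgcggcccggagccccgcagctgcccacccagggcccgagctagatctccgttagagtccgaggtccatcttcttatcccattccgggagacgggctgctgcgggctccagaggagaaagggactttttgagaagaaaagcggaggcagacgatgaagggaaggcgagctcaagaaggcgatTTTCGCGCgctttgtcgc
Rbbp4 (chr4:129335371-129335620, minus strand): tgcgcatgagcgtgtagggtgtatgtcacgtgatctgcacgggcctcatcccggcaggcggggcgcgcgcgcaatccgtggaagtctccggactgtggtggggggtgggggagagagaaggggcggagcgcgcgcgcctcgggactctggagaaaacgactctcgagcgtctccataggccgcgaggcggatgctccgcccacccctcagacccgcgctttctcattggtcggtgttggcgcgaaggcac
Mybl2 (chr2:163054385-163054634, plus strand): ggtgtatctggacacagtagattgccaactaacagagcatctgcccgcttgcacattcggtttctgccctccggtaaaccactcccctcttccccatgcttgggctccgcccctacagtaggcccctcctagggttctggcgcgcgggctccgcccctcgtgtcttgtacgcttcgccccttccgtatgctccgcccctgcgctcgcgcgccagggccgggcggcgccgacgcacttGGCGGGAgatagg

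Distances count from the RefSeq start. The E2F site in Rbl1 began 18 bases before the start, and the E2F core in Mybl2 began 13 bases before it. Rbbp4 held none of these letters in this window. Of the promoters not printed, Lin37 held an E2F core at 16 bases, within the GENCODE gene, and a CHR at 197 bases before the start. Lin52 held an E2F site at 27 bases and the core at 25 bases, both within the GENCODE gene, and the core again at 223 bases. Rbl2 held a CHR at 201 bases. The second Lin54 promoter, which lies wholly within the GENCODE gene, held a core at 89 and a CHR at 162 bases. Among 32536 promoters of the same length, 1.87% held the E2F site, 9.83% the core, 15.8% the CHR and 1.34% its variant. A match describes letters only.

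Depth ran from 17063231 to 22488819 gene counts per library. Skp2 had 0 counts in each TKO library and 0.996 to 3.27 counts-per-million (CPM) in DKO. The floxed genes are only partly removed, so counts over whole genes do not check the deletion of Rb1. Runx2, a master factor of the bone lineage, was present in every tumour (58.4 to 241 CPM), as was the matrix gene Spp1 (251 to 4848 CPM). Markers of mature osteoblasts were low in the DKO tumours and TKO1: Bglap, osteocalcin, had 0 to 0.237 CPM in DKO and 0.375, 241, 153 CPM in TKO, and Alpl, bone alkaline phosphatase, had 0.766 to 18.05 CPM in DKO and 0.083, 1526, 2045 CPM in TKO. The precursor factor Sp7 (Osx1) had 7.97, 0, 0.416 CPM in DKO and 0, 206, 433 CPM in TKO. Col1a1, the main collagen of bone, had 9947 to 11757 CPM in DKO, 209 in TKO1, and 30231 and 26908 CPM in TKO2 and TKO3. TKO1 was unlike TKO2 and TKO3: its log2 CPM correlated with theirs at 0.83 and 0.805 across genes, against 0.915 between TKO2 and TKO3. It was also the only male TKO tumour, so fits without TKO1 compare female TKO tumours with DKO tumours of both sexes. Marker RNA of other cell types was far more abundant in TKO. The summed level of 12 macrophage genes was 9.96 to 127 CPM in DKO and 1564 to 3880 CPM in TKO, with 3 to 6 of the 12 at 0 counts in a DKO library, among them C1qa, C1qb and C1qc in all, and 0 of 12 in TKO. The sum of 9 endothelial genes was 9.2 to 10.9 CPM against 176 to 905 CPM, that of 9 skeletal muscle genes 12.8 to 24.8 against 589 to 10423 CPM, that of 6 plasma and B cell genes 0.356 to 0.398 against 56 to 142 CPM, and that of 6 red cell genes 0.498 to 1.38 against 89 to 1167 CPM. In a DKO library 3 or 4 of the endothelial and 1 to 5 of the muscle genes had 0 counts. So did 2 to 4 of the plasma and B cell genes and 2 to 5 of the red cell genes. In TKO, 0 counts occurred only for 1 red cell gene, in TKO2 and TKO3. Each comparison of TKO with DKO below carries this difference in marker RNA, and its part in the results was not tested. Bulk counts do not measure cell number and RNA per cell separately.

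Rb1 was the single member that passed the test between SKP2-null and SKP2-intact tumours, with a 3.06-fold higher level in TKO. It passed in 8 of the 16 alternative settings, and a member that did not pass may still differ. Rbl2, Mybl2 and Rbbp4 had higher means in TKO and Lin37 a lower mean, without passing the test, and Rbl1, Lin9, Lin52 and Lin54 had fitted fold changes nearer to 1. Thus 1 of 9 members was called (adjusted p under 0.05 in edgeR's quasi-likelihood test), against 7.36% of all genes tested (4.89% higher and 2.47% lower). The count of members at an unadjusted p under 0.05 was also 1, against 25.0% of all genes. DESeq2 called Rb1 alone too, against 18.8% of all genes by that tool (11.6% higher and 7.22% lower), and limma-voom called 0, against 7.23% (2.95% lower). Without TKO1, edgeR called 1 member, again Rb1, against 14.6% of all genes. For 3 members the values of the groups did not overlap, as for 32.9% of all genes tested. TKO lay wholly higher for 2 of them, Rb1 and Rbbp4 (17.3% of all genes), and wholly lower for Lin37 (15.6%). The median log2 fold change of the members was 0.36, beside 0.09 over all genes tested.

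**Figure D1:**
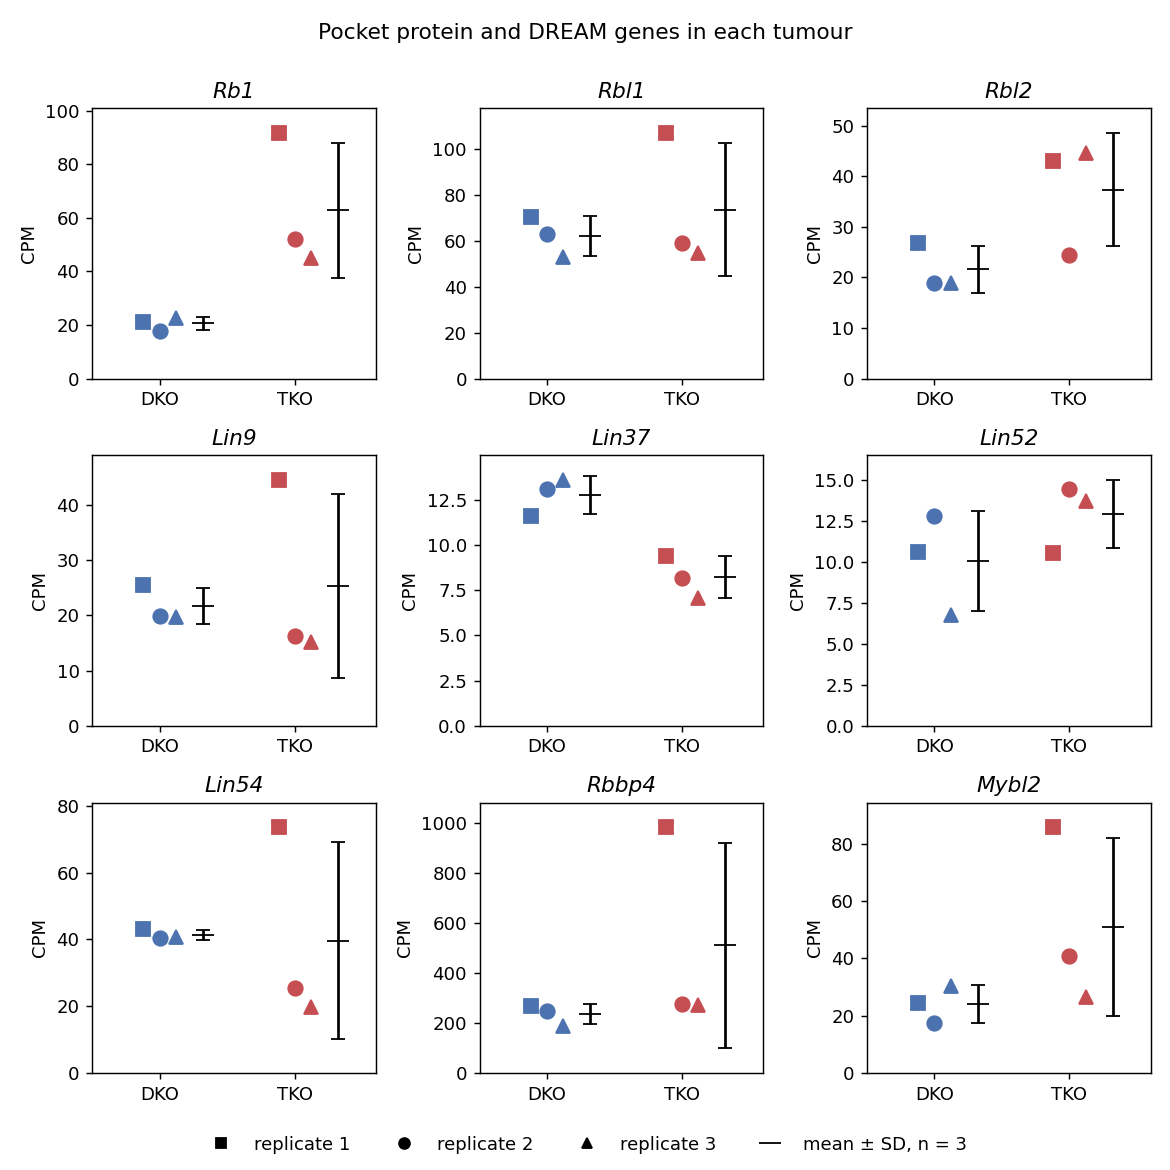
CPM of each gene (vertical axes, each from 0) in the 3 DKO and 3 TKO tumours, with the replicate number as the symbol and the mean ± SD (n = 3) beside the points. Rb1 lies at 44.9 to 91.7 CPM in TKO and 17.9 to 22.5 CPM in DKO. TKO1 lies above the other 5 tumours for Rb1, Rbl1, Lin9, Lin54, Rbbp4 and Mybl2.

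Among the pocket proteins, Rb1 (ENSMUSG00000022105.6, chromosome 14, 73183673 to 73325822, minus strand, GRCm38) had 21.3, 17.9, 22.5 CPM in DKO and 91.7, 52.2, 44.9 CPM in TKO. The lowest TKO tumour was thus well above the highest DKO tumour. The means were 62.9 ± 25.2 CPM in TKO and 20.6 ± 2.37 CPM in DKO (SD, n = 3), with a log2 fold change of 1.61 (SE 0.35) and an adjusted p of 0.0419 in edgeR. Without TKO1 the log2 fold change was 1.23 and the call held (adjusted p = 0.0304). It was lost without each of the other libraries, in fits that called few genes of any kind. The adjusted p was 0.129 without DKO1 (0.237% of all genes called), 0.165 without DKO2 (0.0123%), 0.148 without DKO3 (0%), 0.0769 without TKO2 (2.97%) and 0.0602 without TKO3 (2.04%). It also missed the threshold in limma-voom (0.0511) and when only genes with at least 1 CPM in a library of each group were tested (0.0744, with 1.1% of genes called). In each of these fits Rb1 stayed higher in TKO, by log2 fold changes of 1.23 to 1.81.

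Rb1 was highest in TKO1, where the macrophage, endothelial and muscle sums were lowest among the TKO tumours (1564, 176 and 589 CPM against 3073 to 3880, 628 to 905 and 1829 to 10423 CPM). The red cell sum was highest there (1167 CPM). Trp53, the other floxed gene, had 6.87, 6.03, 7.36 CPM in DKO and 8.46, 37.8, 21.9 CPM in TKO. Its groups did not overlap either, but unlike Rb1 it was lowest among TKO in TKO1 and followed the macrophage, endothelial and muscle sums in order (log2 fold change 1.75, adjusted p = 0.115 in edgeR, 0.0213 in DESeq2 and 0.0174 in edgeR without TKO1). Stromal and blood cells carry unrecombined Rb1 and p53, and their part in the rise was not tested. A second limit is the locus itself. Rcbtb2 and Lpar6, a receptor for lysophosphatidic acid, lie on the opposite strand and share 488 and 408 bases with Rb1 exons, 14.9% of its exon length. Reads in shared bases were assigned to no gene. The counts of the separate strand columns summed to more than the count used here, by a difference worth 14.6 to 18.5% of that sum in the DKO libraries and in TKO1, and 24.1 and 25.9% in TKO2 and TKO3. Lpar6 had 2.02 to 2.99 CPM in DKO and 4.08, 12.1, 16.2 CPM in TKO, and Rcbtb2 had 13.4 to 28.9 CPM in DKO and 38.3 to 52.1 CPM in TKO. Both neighbours were above every DKO tumour in every TKO tumour. Neither passed the test in edgeR (adjusted p = 0.0905 for Lpar6 and 0.0927 for Rcbtb2), both passed in DESeq2 (0.00496 and 0.0212), and Lpar6 also passed in edgeR without TKO1 (0.0212). With the counts of 1 strand only, the Rb1 log2 fold change was 1.65 (adjusted p = 0.03 in edgeR, with 7.26% of all genes called). Opposite strands cannot be told apart in these libraries. Those counts can therefore include reads of the neighbours in the shared bases and do not check for them.

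Rbl1 (ENSMUSG00000027641.13, chromosome 2, 157145893 to 157204534, minus strand), which encodes p107 and is itself a textbook E2F target, was nearly level between the groups. It had 70.4, 62.9, 52.7 CPM in DKO and 107, 58.9, 54.7 CPM in TKO. TKO1 was the highest tumour, and the other 5 overlapped. The log2 fold change was 0.25 (SE 0.34, adjusted p = 0.692 in edgeR) and turned to -0.13 without TKO1 (adjusted p = 0.754).

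Rbl2 (ENSMUSG00000031666.15, chromosome 8, 91070057 to 91123844, plus strand) encodes p130, the pocket protein of resting cells and a protein-level target of SKP2. It had 26.9, 18.9, 18.9 CPM in DKO and 43, 24.4, 44.6 CPM in TKO. TKO2 fell within the DKO range, and the other TKO tumours were above it. The log2 fold change was 0.79 (SE 0.35), with an adjusted p of 0.215 in edgeR, 0.168 in DESeq2 and 0.256 in edgeR without TKO1. Rbl2 shares 21% of its exon bases with Aktip and Gm45464 on the other strand, and 31.3 to 36.9% of the reads of its strand columns were left out of the count in every library. Its level is therefore understated in both groups. Aktip, a cargo adaptor gene, had 17.5 to 65.7 CPM in TKO and 18.1 to 23.4 CPM in DKO, with overlapping groups.

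The balance among the 3 pocket genes can be read within each library, where no scaling between libraries enters. The count of Rb1 relative to Rbl1 was 0.303, 0.285, 0.427 in DKO and 0.859, 0.885, 0.82 in TKO. The TKO tumours lay close together and above all DKO tumours, a difference of 1.36 in the log2 ratio (two-sided p = 0.1 by an exact permutation test, which cannot give less with 3 against 3, and 0.167 adjusted over the 5 ratios computed). Rbl1 relative to Rbl2 was 2.62, 3.32 and 2.78 in DKO and 2.48, 2.41, 1.23 in TKO. Again the groups did not overlap, but TKO3 made most of the difference of -0.57 (exact p = 0.1, adjusted 0.167), which was -0.24 without it. Rb1 relative to Rbl2 was 0.793 to 1.19 in DKO and 2.13, 2.14, 1.01 in TKO, so the groups overlapped through TKO3 (difference 0.79, exact p = 0.2, adjusted 0.25).

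Per whole exon length, Rbl1 was the most abundant pocket gene in every tumour, but in TKO this order rests on the exon bases that Rb1 shares. Over the 5119 Rb1 bases shared with no other gene, Rb1 had 17.9, 10.2, 8.76 CPM per kilobase in TKO, next to 17.8, 9.83, 9.13 for Rbl1, so the lead turned in TKO1 and TKO2. With the left-out reads added back, some of which may come from the neighbours, Rb1 had 17.8, 11.4, 10.1 CPM per kilobase in TKO and was level with Rbl1 in TKO1 and above it in TKO2 and TKO3. In DKO, Rbl1 led on each of these bases, at 8.8 to 11.7 CPM per kilobase against at most 4.53 for Rb1. On whole exon length, the Rbl1 share of the summed CPM per kilobase of the 3 genes was 62.2 ± 3.61% in DKO and 43.9 ± 2.91% in TKO (SD, n = 3). Rb1 made up 18.8, 18.7, 24.9% in DKO and 39.3, 39.9, 33.2% in TKO. Rbl2 made up 17.1 ± 1.65% in DKO and 18.6 ± 6.61% in TKO. Over unshared bases the mean Rb1 share was 22.6% in DKO and 39.5% in TKO, and that of Rbl1 57.5% and 39.4%.

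**Figure D2:**
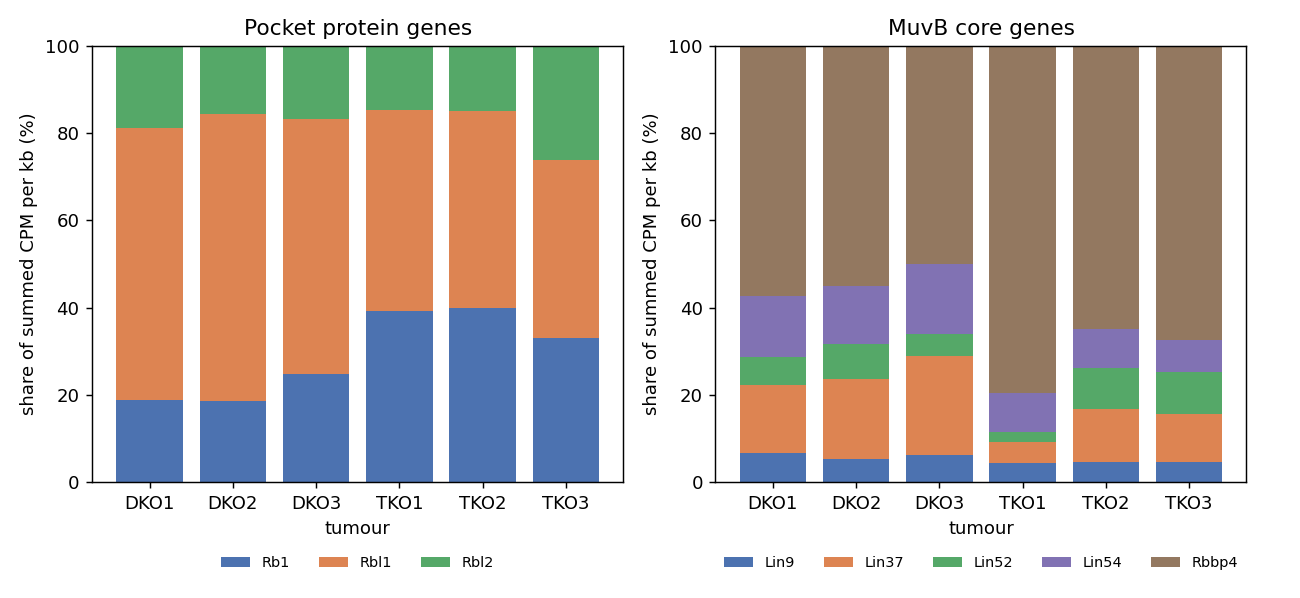
Share (vertical axis, percent) of each gene in the summed CPM per kilobase of exon of the 3 pocket protein genes (left) and the 5 MuvB core genes (right), 1 bar per tumour. Rb1 takes 18.7 to 24.9% of the pocket sum in DKO and 33.2 to 39.9% in TKO, and Rbbp4 takes 49.9 to 57.2% of the MuvB sum in DKO and 64.9 to 79.5% in TKO.

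**Figure D3:**
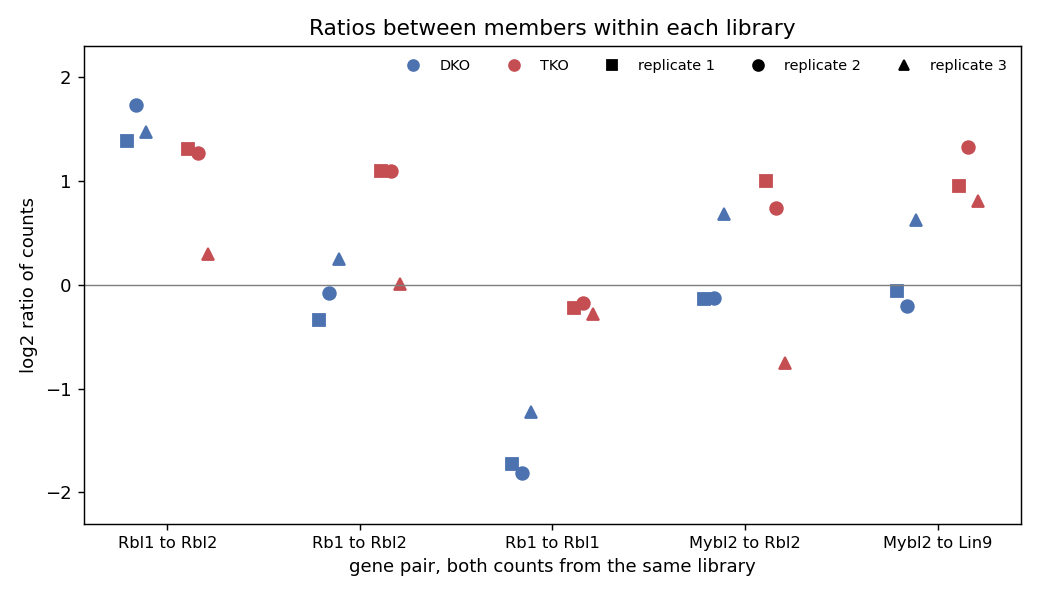
Log2 ratio of the counts of 2 members in the same library (vertical axis) for 5 gene pairs, coloured by group and marked by replicate. The TKO values of Rb1 to Rbl1 lie between -0.29 and -0.18, above the DKO values of -1.81 to -1.23.

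The MuvB core is the part common to DREAM and to the B-MYB complex, and 0 of its 5 genes passed the test, with fold changes in both directions. Rbbp4 (ENSMUSG00000057236.10, chromosome 4, 129307100 to 129335370, minus strand) encodes a histone-binding protein that also serves in several other chromatin complexes. It had 265, 248, 189 CPM in DKO and 982, 277, 270.2 CPM in TKO. The groups did not overlap, but the lowest TKO tumour was barely above the highest DKO tumour and TKO1 was 3.59 times the mean of TKO2 and TKO3. The log2 fold change of 1.12 (SE 0.56, adjusted p = 0.267 in edgeR) became 0.22 without TKO1 (adjusted p = 0.607). Rbbp4 shares 18% of its exon bases with other genes, among them Sync on the opposite strand, and 1.34 to 5.9% of its strand-column reads were left out. Sync, an intermediate filament gene of muscle, had 5.88, 2.25, 7.96 CPM in DKO and 44.6, 6.17, 1.48 CPM in TKO, so that it too was highest in TKO1.

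Lin37 (ENSMUSG00000036845.12, chromosome 7, 30555441 to 30559838, minus strand), the subunit required for DREAM to repress, was the member with the lowest fold change. It had 11.6, 13.1, 13.6 CPM in DKO and 9.38, 8.2, 7.09 CPM in TKO. All TKO tumours, TKO1 included, were below all DKO tumours. The log2 fold change was -0.63 (SE 0.37) and did not pass (adjusted p = 0.329 in edgeR, 0.19 in DESeq2, 0.224 in edgeR without TKO1).

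Lin54 and Lin9 shared an order of tumours in which TKO1 was high and TKO2 and TKO3 were low. Lin54 (ENSMUSG00000035310.15, chromosome 5, 100441918 to 100500639, minus strand) encodes the subunit that binds CHR DNA. It had 43.1, 40.4, 40.6 CPM in DKO and 73.7, 25.3, 19.9 CPM in TKO. TKO1 was above the narrow DKO range and the other TKO tumours were below it. The log2 fold change was -0.06 (SE 0.51, adjusted p = 0.954 in edgeR), and -0.88 without TKO1 (SE 0.26, adjusted p = 0.0732). Lin9 (ENSMUSG00000058729.13, chromosome 1, 180641150 to 180690694, plus strand), the scaffold of the core, had 25.5, 19.9, 19.7 CPM in DKO and 44.5, 16.2, 15.1 CPM in TKO. TKO1 again lay above and TKO2 and TKO3 below the DKO tumours, and the log2 fold change of 0.22 (SE 0.48, adjusted p = 0.814 in edgeR) turned to -0.48 without TKO1 (adjusted p = 0.321).

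Lin52 (ENSMUSG00000085793.2, chromosome 12, 84451422 to 84546145, plus strand) encodes the subunit whose phosphorylation by DYRK1A lets MuvB bind p107 or p130. It was among the least abundant members, with 10.6, 12.8, 6.77 CPM in DKO and 10.5, 14.5, 13.7 CPM in TKO. TKO1 was not high here, and the groups overlapped (log2 fold change 0.36, SE 0.41, adjusted p = 0.622 in edgeR).

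Within the MuvB core, Rbbp4 made up 57.2, 55, 49.9% of the summed CPM per kilobase in DKO and 79.5, 64.9, 67.3% in TKO. The share of Lin54 was 14.5 ± 1.43% in DKO and 8.44 ± 0.865% in TKO (SD, n = 3), with no overlap. Lin37 made up 18.9 ± 3.49% in DKO and 9.34 ± 3.97% in TKO, and Lin9 6.09 ± 0.676% and 4.49 ± 0.123%, also without overlap. Lin52 overlapped, at 5.03 to 7.99% in DKO and 2.4 to 9.6% in TKO. The shares of a sum are not independent, and Rbbp4 holds most of this one in all libraries but DKO3 (49.9%).

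Mybl2 (ENSMUSG00000017861.11, chromosome 2, 163054687 to 163084688, plus strand) encodes B-MYB, the factor that replaces the pocket proteins on MuvB in dividing cells. It had 24.5, 17.3, 30.4 CPM in DKO and 85.9, 40.8, 26.5 CPM in TKO. TKO3 lay within the DKO range and the other TKO tumours above it. The log2 fold change of 1.09 (SE 0.49, adjusted p = 0.221 in edgeR) became 0.48 without TKO1 (adjusted p = 0.405). Within libraries, Mybl2 relative to Lin9 was 0.959, 0.867, 1.54 in DKO and 1.93, 2.51, 1.75 in TKO. Those groups did not overlap, with a difference of 0.91 in the log2 ratio (exact permutation p = 0.1, adjusted 0.167). Mybl2 relative to Rbl2 was 0.909 to 1.6 in DKO and 0.594 to 2 in TKO and overlapped widely (difference 0.19, exact p = 0.8). That difference had no stable direction, at -0.14 without TKO1, -0.015 without TKO2 and 0.73 without TKO3.

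**Figure D4:**
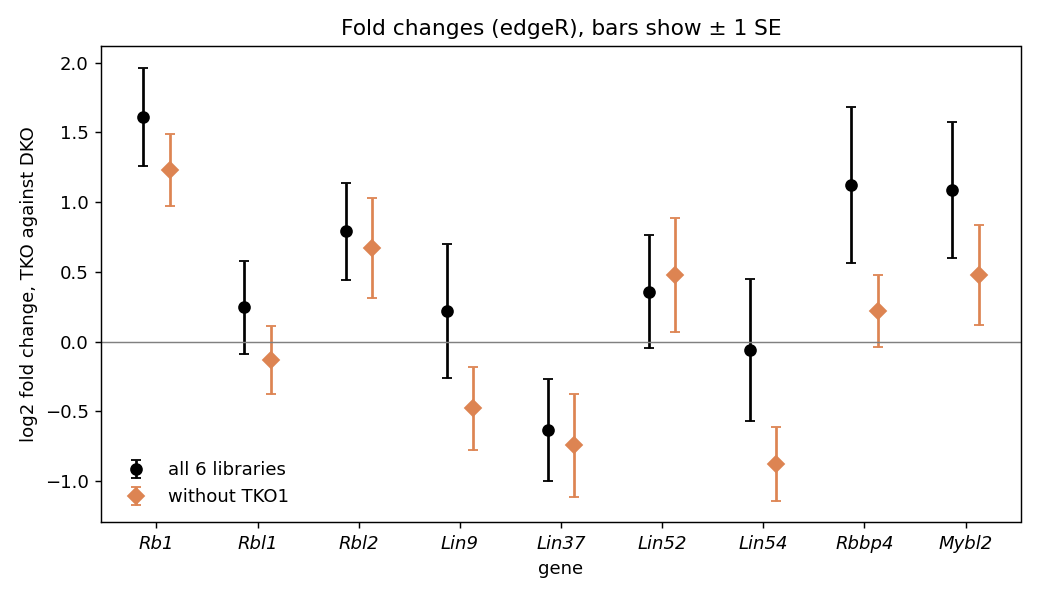
Log2 fold change of TKO against DKO (vertical axis; edgeR, bars ± 1 SE) for the 9 genes with all 6 libraries (black circles) and without TKO1 (orange diamonds). Rb1 goes from 1.61 to 1.23, Rbbp4 from 1.12 to 0.22 and Lin54 from -0.06 to -0.88, while Lin37 goes from -0.63 to -0.74.

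Ordered by level per kilobase of whole exon length, Rbbp4 was the most abundant member in both groups, at 26.8 ± 4.61 CPM per kilobase in DKO and 58.3 ± 46.8 in TKO (SD, n = 3), with no overlap with the next gene. In DKO it was followed by Rbl1 (10.3 ± 1.48 CPM per kilobase) and Lin37 (9.19 ± 0.745), whose ranges overlapped. Lin54 (7.11 ± 0.263 CPM per kilobase) lay apart from both of its neighbours. Mybl2 (5.19 ± 1.42), Rb1 (3.42 ± 0.394), Lin52 (3.24 ± 0.985), Lin9 (3 ± 0.453) and Rbl2 (2.85 ± 0.609) followed, each overlapping the next. In TKO all neighbours below Rbbp4 overlapped, from Rbl1 (12.3 ± 4.83 CPM per kilobase) and Mybl2 (11 ± 6.69) through Rb1 (10.5 ± 4.19) down to Lin9 (3.49 ± 2.3). For 6 of 9 members TKO1 held the highest value of all 6 libraries, as for 23.7% of all genes tested. The other 3 were Rbl2, Lin37 and Lin52.

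The E2F and DP partners of DREAM showed 0 of 4 genes called in edgeR or limma-voom and 1 higher in DESeq2. An unadjusted p under 0.05 in edgeR was found for 2, against 25.0% of all genes tested. The shares of all genes called were 7.36% in edgeR, 7.23% in limma-voom and 18.8% in DESeq2 (11.6% higher). Tfdp2, a DP partner, had 22.8, 20.9, 22.7 CPM in DKO and 105, 40.5, 33.1 CPM in TKO, without overlap (log2 fold change 1.42, adjusted p = 0.122 in edgeR and 0.0442 in DESeq2). Without TKO1 its log2 fold change was 0.73 (adjusted p = 0.109 in edgeR). Tfdp1, the other DP gene, had 166 to 267 CPM in DKO and 205 to 681 CPM in TKO (adjusted p = 0.184 in edgeR). E2f5, which pairs with p130, had 17.98 to 23.5 CPM in DKO and 8.68 to 14.8 CPM in TKO, below every DKO tumour (log2 fold change -0.69, adjusted p = 0.28 in edgeR). E2f4, the main E2F of DREAM, had 53.3 to 90.8 CPM in DKO and 201, 56.4, 57.4 CPM in TKO (log2 fold change 0.56, adjusted p = 0.569 in edgeR, and -0.33 without TKO1).

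Among 17 cyclins, kinases and inhibitors that act on pocket proteins, 0 were called in edgeR (4 at an unadjusted p under 0.05). DESeq2 called 4 (1 higher, 3 lower) and limma-voom 1. Over all genes tested, 7.36% were called in edgeR, 18.8% in DESeq2 (11.6% higher, 7.22% lower) and 7.23% in limma-voom. For 25.0% of all genes the unadjusted p in edgeR was under 0.05. Ccnd2, a D-type cyclin that starts pocket protein phosphorylation, had 331, 413, 401 CPM in DKO and 7.79, 23.2, 75.9 CPM in TKO. Every TKO tumour was far below every DKO tumour, with a log2 fold change of -3.42 (SE 0.8) and an adjusted p of 0.051 in edgeR, 0.000146 in DESeq2, 0.0248 in limma-voom and 0.0224 in edgeR without TKO1. Without TKO3 its log2 fold change was -4.61 (adjusted p = 0.0344 in edgeR). Its kinase Cdk6 had 171 to 190.01 CPM in DKO and 50.9 to 121 CPM in TKO (log2 fold change -1.19, adjusted p = 0.102 in edgeR, 0.012 without TKO1). Cdkn2b, which encodes the Cdk4 and Cdk6 inhibitor p15, had 49.3 to 81.8 CPM in DKO and 8.62 to 26.9 CPM in TKO (log2 fold change -1.87, adjusted p = 0.0612 in edgeR and 0.00457 in DESeq2). Ccne2, a cyclin of the G1/S step, had 16.6 to 36.5 CPM in DKO and 42.8 to 160 CPM in TKO (log2 fold change 1.68, adjusted p = 0.13 in edgeR and 0.0406 in DESeq2). Without TKO1 its log2 fold change was 0.88 (adjusted p = 0.172 in edgeR).

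Of 17 corepressor and chromatin partners, 0 were called in edgeR (1 at an unadjusted p under 0.05), 1 in DESeq2 and 0 in limma-voom. The shares of all genes were 7.36% in edgeR (25.0% at an unadjusted p under 0.05), 18.8% in DESeq2 and 7.23% in limma-voom. Ctbp1, a corepressor, had 99.2 to 239 CPM in DKO and 315 to 445 CPM in TKO without overlap (log2 fold change 1.18, adjusted p = 0.12 in edgeR and 0.0447 in DESeq2). Arid4a, which encodes an RB-binding protein, had 23.7 to 26.1 CPM in DKO and 30.2 to 46.9 CPM in TKO (adjusted p = 0.206 in edgeR). Sin3b, a scaffold for histone deacetylases, had 71.5 to 73.8 CPM in DKO and 78.8 to 169 CPM in TKO (adjusted p = 0.225). Dnmt1, the maintenance DNA methyltransferase, had 287 to 358 CPM in DKO and 99 to 255 CPM in TKO (adjusted p = 0.219).

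The relatives of the members gave 0 of 4 genes called in edgeR, DESeq2 and limma-voom. These tools called 7.36%, 18.8% and 7.23% of all genes. In edgeR 0 of the 4 had an unadjusted p under 0.05, against 25.0% of all genes. Rbbp7, the close relative of Rbbp4, had 291, 222, 263 CPM in DKO and 601, 211, 196 CPM in TKO (log2 fold change 0.38, adjusted p = 0.672 in edgeR). Mybl1, encoding A-MYB, had 13.1 to 30.8 CPM in DKO and 45.7, 11.4, 5.76 CPM in TKO. Myb had 0.255 to 2.54 CPM in DKO and 14.1, 0.964, 0.918 CPM in TKO. Tesmin, a relative of Lin54, reached 3.25 CPM in TKO1 and at most 0.627 CPM elsewhere. All 4 relatives were highest in TKO1, against 23.7% of all genes tested. Without TKO1 the log2 fold changes of Rbbp7, Mybl1 and Myb were -0.35, -1.19 and -0.44.

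The targets that these complexes repress or activate form 2 lists. Of 32 G1/S genes that E2F and pocket proteins control, 0 were called in edgeR (3 at an unadjusted p under 0.05). DESeq2 called 1 (Ccne2) and limma-voom 0, and 25 were highest in TKO1. Among all genes, edgeR called 7.36% (25.0% at an unadjusted p under 0.05), DESeq2 18.8% and limma-voom 7.23%, and 23.7% were highest in TKO1. The median log2 fold change was 0.25, and -0.26 without TKO1, when 1 was called lower, against 4.94% of all genes. That gene was Cdt1, a replication licensing factor (log2 fold change -1.31, adjusted p = 0.0298 in edgeR). It is named because it was the single call. Beside Ccne2, Rfc3, a replication clamp loader subunit, had 20.6 to 25.8 CPM in DKO and 30.4 to 85.2 CPM in TKO (adjusted p = 0.132 in edgeR). Mcm10, a replication initiation factor, had 29.7 to 45 CPM in DKO and 17.5 to 26 CPM in TKO, below every DKO tumour (log2 fold change -0.79, adjusted p = 0.172). Tk1, thymidine kinase, had 35.5 to 45.7 CPM in DKO and 187, 82.9, 33.2 CPM in TKO (log2 fold change 1.28, adjusted p = 0.229, and 0.48 without TKO1, adjusted p = 0.47).

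Of 35 G2/M genes bound by DREAM and by B-MYB with MuvB, 33 were tested, and Nek2 and Kif11 were listed at 0 in every library and on each strand. As the other 33 were all read at 1 CPM or more in every library, those zeros are not read here as a lack of transcripts, and whether they come from the counting was not tested. The count called was 0 of 33 in edgeR (3 at an unadjusted p under 0.05, all lower), DESeq2 and limma-voom, and 26 were highest in TKO1. The shares of all genes called were 7.36% in edgeR (25.0% at an unadjusted p under 0.05), 18.8% in DESeq2 and 7.23% in limma-voom. Those highest in TKO1 made up 23.7% of all genes. The median log2 fold change was -0.24, and -0.55 in limma-voom. Without TKO1 the median was -1.1, beside 0.02 over all genes. A negative fold change was then found for 32 of 33 genes, against 7528 of the 15361 genes tested with all libraries. In the fit without TKO1, 11 of the 33 were called lower, against 4.94% of all genes. The summed level of the list was 2529, 3506 and 3086 CPM in DKO1, DKO2 and DKO3, 5043 CPM in TKO1, and 1881 and 1041 CPM in TKO2 and TKO3. TKO1 thus lay above and TKO2 and TKO3 below all DKO tumours, the same order as for Lin9 and Lin54. Bub1, a kinase of the mitotic checkpoint, had 56.5 to 65.6 CPM in DKO and 40.4, 28.9, 17.5 CPM in TKO (log2 fold change -1.09, adjusted p = 0.114 in edgeR, 0.0338 without TKO1). Hmmr, a spindle assembly factor, had 76.2 to 128 CPM in DKO and 15.4 to 59.9 CPM in TKO (log2 fold change -1.5, adjusted p = 0.127, and 0.0392 without TKO1). Ttk, another checkpoint kinase, had 27.7 to 39.9 CPM in DKO and 8.41 to 25.7 CPM in TKO (adjusted p = 0.197, and 0.0346 without TKO1). Aurka, the Aurora A kinase, had 49.996 to 87 CPM in DKO and 18.5 to 54.8 CPM in TKO (adjusted p = 0.261).

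**Figure D5:**
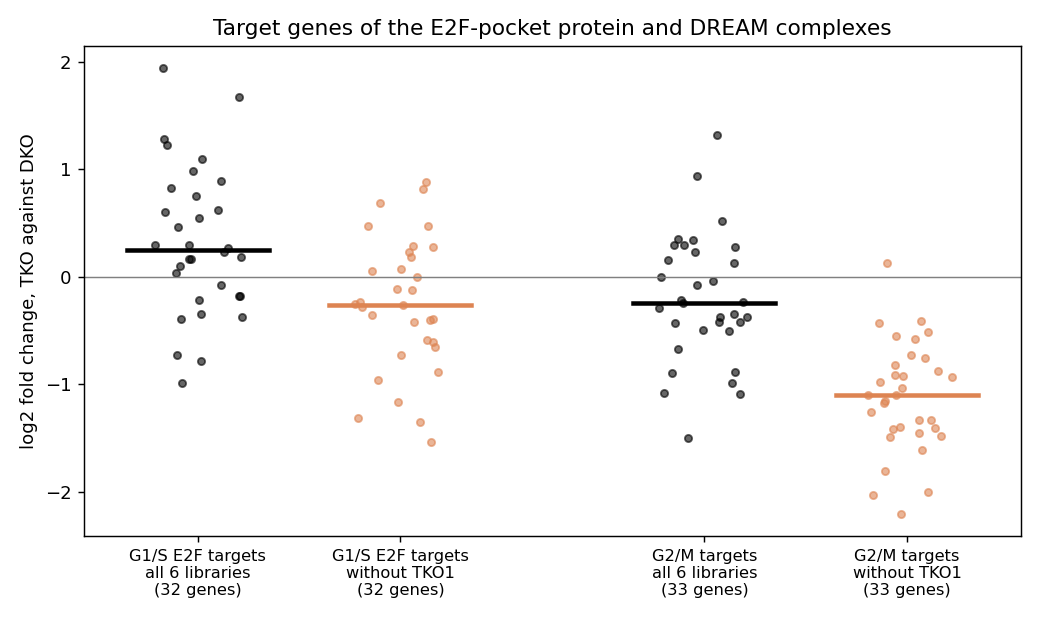
Log2 fold change of TKO against DKO (vertical axis; edgeR) for each of 32 G1/S and 33 G2/M target genes (points) with their median (line), with all 6 libraries (black) and without TKO1 (orange). The G2/M median moves from -0.24 to -1.1 and the G1/S median from 0.25 to -0.26.

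The genes whose log2 CPM, centred over the 6 libraries, followed a member most closely were picked among 9533 genes by the smallest root mean square difference. Closest to Rb1 were Ttc33 (0.17 log2 units), Tusc1 (0.18) and Svbp (0.18). Ttc33 had 6.03 to 7.12 CPM in DKO and 12.7 to 21.9 CPM in TKO. Closest to Rbl1 were Cnbp (0.055 log2 units), Zfyve9 (0.07) and Amd1 (0.071). Rbl2 was followed most closely by Sfxn2 (0.11), Dcps (0.12) and Nrbp1 (0.13). Mybl2 was followed most closely by Alyref (0.12), with 55.2 to 76.4 CPM in DKO and 243, 112, 66.7 CPM in TKO, then by Mmd (0.17) and Tuba1b (0.18).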

How the data were processed

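Polyadenylated RNA of 3 DKO and 3 TKO tumours was read on a HiSeq instrument, as described per the labels. The authors deposited whole-number counts of reads per gene, without normalization, in a series table and in 1 file per library. The submitters' processing notes name STAR 2.6.1 and mm10. The release of the annotation is not given. The series table and the either-strand column of the library files differed in 0 genes. The first-strand column held 50.2 to 51.3% of stranded counts, so opposite strands cannot be told apart. Library sizes leave out reads in more than 1 gene (5.1 to 6.53% of reads), in no gene (5.33 to 9.3%), at several places (3.94 to 4.7%) and unmapped (2.53 to 3.2%).

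Symbols, positions and exon lengths came from GENCODE M21 (GRCm38), which matched 55154 of 56196 gene IDs. After filterByExpr (minimum count 10) and TMM scaling, the groups were compared with edgeR 4.0.16 in R 4.3.3 (quasi-likelihood test, robust dispersion, no covariate). P-values were adjusted by Benjamini-Hochberg over all 15361 genes, with a threshold of 0.05. CPM were taken on the effective library size. Ratios within a library added 0.5 to each count, and the exact test covered 20 assignments of tumours.

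The members, lists, alternatives and naming rule were chosen with earlier results of these data known. The rule named the 9 members, genes that overlap a member, all relatives, the 4 genes of each list with the smallest p, and, for Rb1, Rbl1, Rbl2 and Mybl2, the 3 most alike genes whose mean log2 CPM reached 3 (prior count 2), without predicted or clone names. Of the overlapping genes, Hspb6 shares 3 bases with Lin37, and the others not described had under 1 CPM or no row in the table. In 5 simulated runs of TKO against DKO on 15361 genes, edgeR recovered 11.6% of changes of 4-fold and 64.6% of those of 16-fold. It made 5 false calls a run. Each run changed fewer genes than were called in the data, which makes the adjusted threshold stricter. Recovery in the data may therefore be higher. Alternatives were RLE, upper-quartile and total scaling, no filter and a stricter filter, DESeq2 1.42.0, limma-voom (limma 3.58.1), a replicate block, sex, 1-strand counts and leaving out each library.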

Additional observations from a re-analysis of the deposited data

How the results depend on the processing

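The log2 ratios within libraries kept their direction under every alternative run, except Mybl2 to Rbl2, which ranged from -0.14 (without TKO1) to 0.73 (without TKO3) with a library left out and was -0.015 without TKO2. Rbl1 to Rbl2 ranged from -0.75 to -0.24. Counting pocket shares over unshared bases or with left-out reads added back, both chosen after seeing the data, moved the Rb1 difference from 16.7 to 17.0 and 17.8 percentage points. Rbl2, Mybl2, Rbbp4, Lin37 and Lin52 kept their direction and stayed uncalled under all 16 alternatives. The number of genes called was 1131, against 2893 in DESeq2, 146 when only genes with at least 1 CPM in a library of each group were tested, and 0 to 2385 with a library left out. The number of members called was 1 and became 0 with that stricter filter, in limma-voom and under the block, and 0 to 1 with a library left out. The number of pathway list genes called was 0. It was 6 in DESeq2, 1 each with library totals, no filter, limma-voom, sex as a covariate and 1-strand counts, and 0 to 14 with a library left out, the most without TKO1. With a library left out, the log2 fold change ranged from -0.13 to 0.42 for Rbl1, -0.48 to 0.49 for Lin9, -0.88 to 0.26 for Lin54, -0.33 to 0.87 for E2f4, -0.44 to 3.07 for Myb, -1.19 to 0.63 for Mybl1 and -0.35 to 0.65 for Rbbp7. The turn in direction came without TKO1 for Rbl1, Lin9, E2f4, Myb and Rbbp7, without TKO2 (0.19) or TKO3 for Lin54, and without TKO1, DKO1 (-0.13) or DKO2 (-0.083) for Mybl1. Lin54 also turned with library totals (0.0082), and Mybl1 in limma-voom (-0.24), under the block (-0.34) and with sex (-0.43). The causes were not tested. No scaling moved the median log2 fold change of all genes by more than 0.036. Same-numbered tumours did not deviate together over all genes (correlations of -0.017 to 0.0089). A pairing that touches few genes would not show in these correlations. The replicate block called 295 genes and gave Rb1 an adjusted p of 0.101 in edgeR. With 3 tumours a group, the simulated recovery of 4-fold changes was low, in runs that changed few genes. A gene that was not called may still differ.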
